A study of Danio rerio with 2 samples.

Results

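The cryptochrome and period genes encode the repressor arm of the circadian clock together with its light-sensing relatives. Period and cryptochrome proteins accumulate, return to the nucleus and inhibit the transcription factor pair of Clock and Bmal, which switched their genes on, and this loop sets a daily rhythm. Zebrafish are known for clocks in most tissues that respond to light directly, in which light raises the RNA of per2, cry1a and cry5 through enhancer elements called D-boxes. The family also holds photolyase-like members, which use light to repair DNA damaged by ultraviolet light. The genes described here were chosen by symbol, as 8 cryptochrome genes (cry1a, cry1b, cry2a, cry2b, cry3, cry4, cry5 and cry-dash) and 2 period genes (per1b and per2), and all 10 were found among the 34728 loci of the deposited expression table. RefSeq now lists cry2a, cry2b and cry3 as synonyms of cry3a, cry3b and cry2, and the names of the deposited table are kept throughout.

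RNA was sequenced from whole zebrafish embryos at 32 hours post fertilisation, raised at 28 °C, in 1 library from supt16h mutants and 1 library from their wild-type siblings. The product of supt16h is part of FACT, a complex that opens and rebuilds nucleosomes during transcription and replication, and the series was designed to locate the mutation by linkage. The mutants came from a forward genetic screen. The sources used here do not give the number of embryos per library, their lighting or the clock time of collection. With 1 library per genotype no difference has a replicate check, and no test between genotypes was possible. In whole embryos, fewer cells of a type and less RNA per cell cannot be told apart.

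The labels were first checked at the mutated gene and at tissue markers. Expression of supt16h was 2.98 FPKM in the mutant library and 44.4 FPKM in the sibling library, 14.9-fold lower in the mutant. FPKM, fragments scaled to transcript length and to the fragments of the library, is a level per length, so levels of different genes can be set side by side. Markers of muscle, blood, neurons, epidermis, lens, heart and endothelium were all present in both libraries. Read from the smallest FPKM values, the mutant library was sequenced 1.53 times as deeply as the sibling library, and the absolute depth is unknown. Of all loci, 20638 had a mean of at least 1 FPKM over the libraries and are called measured here, and all 10 cryptochrome and period genes were among them. Each difference is the log2 of the mutant level less that of the sibling level, after 1 FPKM was added to both, which shrinks the change of genes with low levels, and 2-fold on that scale was the size counted.

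Most of the cryptochrome and period genes were listed at similar levels in the mutant and sibling libraries, with cry1a and cry-dash as the members furthest above 0. The light-induced repressor gene cry1a was 2.22-fold higher in the mutant library and cry-dash was 1.71-fold higher. The listed levels of the other 8 genes differed by less than 1.5-fold, with cry2b at 0.70 times and per2 at 1.07 times its sibling level. Of these 8, cry2a and cry2b had differences with almost no precision, as described below. For each of the rest, a 2-fold change in either direction lay inside the error read from the authors' deposited table. Of the 10 genes, 1 was at least 2-fold higher, against 6.75% of measured genes, and 0 were at least 2-fold lower, against 8.36%. Among measured genes with a mean inside the range of the 10 genes, 2.02 to 63.7 FPKM, those shares were 6.94% and 9.08%. The 1 gene was cry1a, whose log2 difference of 1.0020 lay at the edge of the size rule. The authors call 0.469% of the loci they tested different in their deposited table, and 0 of the 10 genes.

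**Figure D1:**
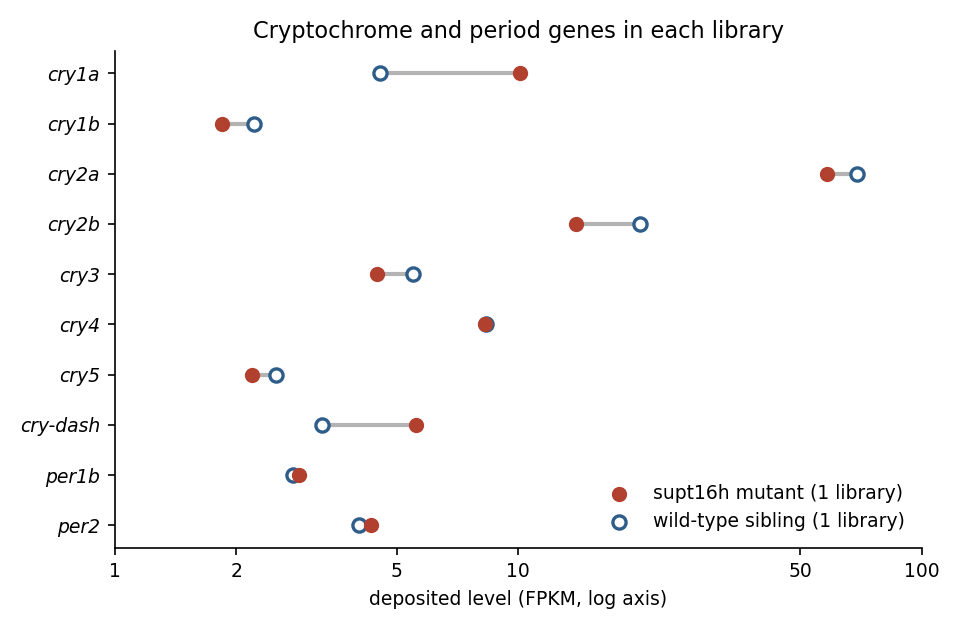
Deposited levels of the 8 cryptochrome and 2 period genes in FPKM on a log axis, filled circles for the supt16h mutant library and open circles for the wild-type sibling library. The mutant lies to the right for cry1a (10.1 against 4.54 FPKM) and cry-dash (5.57 against 3.26 FPKM), and the circles nearly coincide for cry4, per1b and per2.

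Levels within the family spanned a wide range in both libraries. The highest was cry2a, at 58.3 FPKM in the mutant library and 69.2 FPKM in the sibling library, and the lowest was cry1b, at 1.84 and 2.21 FPKM in mutant and sibling. The level of cry2a was thus 31.7 times that of cry1b in the mutant and 31.3 times in the sibling. Both libraries had the same order at the ends, cry2a and then cry2b at the top, and per1b, cry5 and cry1b as the lowest members. Between these, cry1a ranked 3 in the mutant and 5 in the sibling, and cry-dash ranked 5 in the mutant and 7 in the sibling, while cry3 ranked 6 in the mutant and 4 in the sibling. Neighbours in the order were mostly close, and without replicates the order among the genes from 2 to 10 FPKM has no error to be read against. Summed over the 8 cryptochrome genes the level was 104.6 FPKM in the mutant and 115.5 FPKM in the sibling. Of that sum cry2a made up 55.7% in the mutant and 59.9% in the sibling, and cry1a made up 9.64% in the mutant and 3.93% in the sibling. The loci of cry2a and cry2b are shared with other genes, and their differences had almost no precision, as described below. The ranks, ratio, sums and shares that use their levels have little precision too.

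Among the cryptochromes known as repressors of Clock and Bmal, cry1a was the only one listed above its sibling level. The differences of cry2a and cry2b had almost no precision, so their direction is not known. The level of cry1a was 10.1 FPKM in the mutant library and 4.54 FPKM in the sibling library. In Zv9 coordinates the cry1a locus spans chromosome 4 from 11077566 to 11091060. The authors' deposited table gives cry1a a log2 change of 1.15 with p = 0.0595 and q = 0.825, values that compare these libraries and not the genotypes. The test statistic in that table implies a standard error of 0.61 for the change, and an interval at 95% from -0.05 to 2.35. Of all measured genes, 93.3% had a lower log2 difference than cry1a. Its paralog cry1b, on chromosome 18 from 14692587 to 14715764, had 1.84 FPKM in the mutant and 2.21 FPKM in the sibling, a log2 difference of -0.18. The mutant library therefore held 5.50 times as much cry1a as cry1b, and the sibling library 2.05 times as much. In the authors' deposited table the implied interval of cry1b, -1.55 to 1.02, overlaps that of cry1a.

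The other repressor pair, cry2a and cry2b, had the highest listed levels of the family, and their differences were measured with almost no precision. The values of cry2a were those given above, a log2 difference of -0.24. For cry2b the values were 13.9 FPKM in the mutant library and 20.0 FPKM in the sibling library, a log2 difference of -0.49, which was the lowest of the family. The ratio of cry2a to cry2b was 4.18 in the mutant and 3.46 in the sibling. Both sit at loci that the deposited table shares between genes. The cry2a locus, on chromosome 8 from 21675463 to 21890950, also carries 7 other genes, among them col2a1a of cartilage collagen at 219.9 FPKM in the mutant and 167.7 FPKM in the sibling. The cry2b locus, on chromosome 22 from 745664 to 789091, also carries btg2, an antiproliferative gene, at 116.3 FPKM in the mutant and 145.4 FPKM in the sibling. In the authors' deposited table the statistics imply standard errors of 8.17 and 5.80 for the log2 changes of cry2a and cry2b, so these differences have almost no precision. At the same loci col2a1a and btg2 had implied standard errors of 0.71 and 0.69. The remaining genes at the cry2a locus had errors from 5.90 to 152.59. Why the errors of cry2a and cry2b were wide was not tested. The other 8 genes are alone at their loci, with implied standard errors from 0.59 to 1.04, around the median of 0.74 over measured loci.

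**Figure D2:**
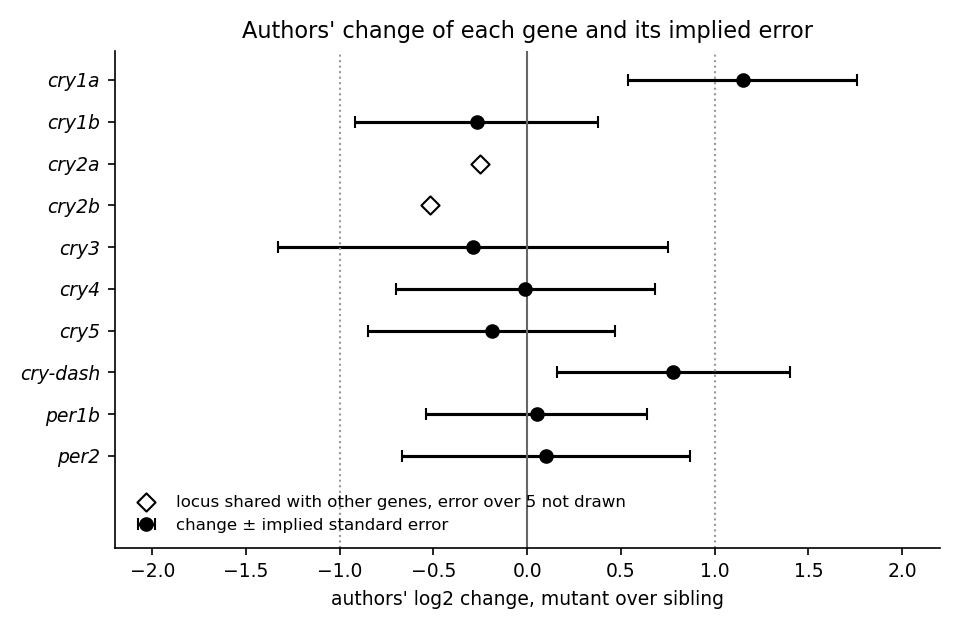
Log2 change of each gene, mutant over sibling, as the authors' deposited table gives it, with a bar of 1 implied standard error on each side. Diamonds mark cry2a and cry2b, whose loci are shared with other genes and whose errors of 8.17 and 5.80 are not drawn. Dotted lines mark 2-fold. The bars of cry1a and cry-dash lie above 0, and the other drawn bars include 0.

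The cryptochromes cry3 and cry4, which in reporter cells did not repress Clock and Bmal, were close to their sibling levels. For cry3, on chromosome 25 from 4286390 to 4311451, the levels were 4.47 FPKM in the mutant library and 5.47 FPKM in the sibling library, and its implied standard error of 1.04 was the widest of the genes alone at their loci. For cry4, on chromosome 22 from 799801 to 814296, they were 8.28 FPKM in the mutant and 8.32 FPKM in the sibling, a log2 difference of -0.01. The locus of cry4 begins 10709 bases after that of cry2b ends, so these neighbours had log2 differences of -0.01 and -0.49. The interval implied for cry4 in the authors' deposited table ran from -1.36 to 1.35, so a change of 2-fold in either direction lay inside its error.

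Of the photolyase-like members, cry5 was slightly below and cry-dash above its sibling level. The gene cry5 encodes a photolyase and is itself induced by light in zebrafish. It lies on chromosome 10 from 40632409 to 40647770, and its levels were 2.19 FPKM in the mutant library and 2.51 FPKM in the sibling library. Proteins of the cry-dash type repair pyrimidine dimers, preferably in single-stranded DNA. The cry-dash locus, on chromosome 24 from 20802473 to 20816926, stood at 5.57 FPKM in the mutant and 3.26 FPKM in the sibling, a log2 difference of 0.63. That placed it above 85.5% of measured genes, while cry5 at -0.13 was above 41.1%. In the authors' deposited table cry-dash has a log2 change of 0.78 and q = 1.000, and the implied standard error is 0.62. The implied intervals at 95% of cry5 and cry-dash overlap, and the difference between these genes was not tested. Its order relative to cry5 was the same in both libraries, with cry-dash higher.

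The period genes per1b and per2 showed the smallest differences of the family along with cry4. The light-induced gene per2, on chromosome 2 from 48423771 to 48489514, had 4.32 FPKM in the mutant library and 4.02 FPKM in the sibling library. The rhythmic gene per1b had 2.86 FPKM in the mutant and 2.76 FPKM in the sibling. Their log2 differences were 0.08 for per2 and 0.04 for per1b, and that of per1b was -0.03 when both libraries were scaled to the same FPKM sum. The per1b locus is on chromosome 7 from 52277644 to 52301471, the chromosome of supt16h, at a distance of 50.5 Mb. Of the other period genes, per3 had 2.15 FPKM in the mutant and 1.76 FPKM in the sibling, a log2 difference of 0.19. The gene per1a was listed at 0 in both. Together the 3 period genes with values summed to 9.32 FPKM in the mutant and 8.55 FPKM in the sibling. The light-induced genes cry1a, per2 and cry5 thus had log2 differences of 1.00, 0.08 and -0.13. In the authors' deposited table, the implied interval of per2, -1.41 to 1.61, overlaps that of cry1a.

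**Figure D3:**
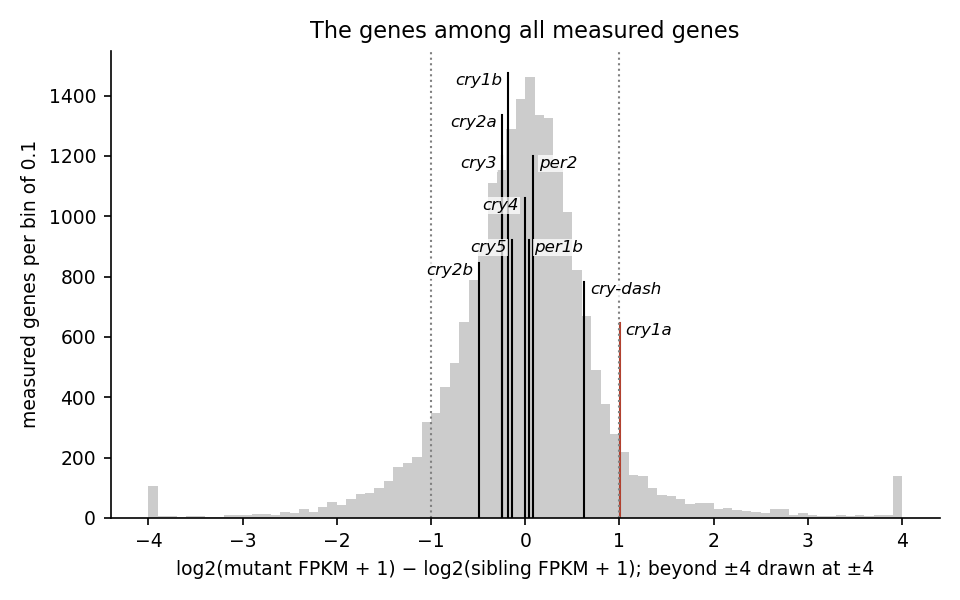
Histogram of the log2 differences of the 20638 measured genes, with 1 FPKM added and differences beyond 4 in either direction drawn at 4. Vertical lines mark the 10 cryptochrome and period genes, and their heights carry no value. Dotted lines mark 2-fold. The line of cry1a lies at the upper dotted line, and 7 of the 10 lines lie between the quartiles of all measured genes, -0.42 and 0.39.

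Over the 10 genes the median log2 difference was -0.07, beside 0.0012 over all measured genes, with 4 genes above 0 and 6 below. Without cry2a and cry2b, whose loci are shared, the median was 0.02. The values that a test of 1 library against 1 library could call here were far larger than those of the family. In the authors' deposited table, 20 of 8382 tested loci in the range of the 8 genes alone at their loci, means of 2.02 to 8.30 FPKM, are called, and the smallest called change among them is 2.25 on the log2 scale. None of the differences of the 10 genes reached that size.

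The rest of the clock was read from 9 lists of genes. Across these lists, each gene counted once, 51 genes were measured, of which 3 stood at least 2-fold above and 2 at least 2-fold below the sibling, beside 6.75% and 8.36% of all measured genes, and their median log2 difference was -0.24, beside 0.0012. The authors' deposited table calls 2 of them, rorb and cdkn1a, and 0.469% of all tested loci. The partners on which cryptochromes and period proteins act, 4 measured activator genes, were all below their sibling levels by less than 2-fold. Their log2 differences ran from -0.55 to -0.03, with implied standard errors from 0.60 to 1.22, and none is called. Of the activators, arntl2, a Bmal gene, had 6.77 FPKM in the mutant and 10.4 FPKM in the sibling. The Bmal gene arntl1b had 3.27 FPKM in the mutant and 4.93 FPKM in the sibling, and arntl1a had 5.45 and 5.60 FPKM in mutant and sibling. The Clock gene clockb had 5.36 FPKM in the mutant and 6.27 FPKM in the sibling. The list genes clocka and npas2 had means under 1 FPKM and went opposite ways, with log2 differences of -0.52 and 0.38. On the deposited values clocka stood at 0.42 times and npas2 at 2.07 times its sibling level, with implied standard errors of 0.82 and 0.88. The shared direction of the activators therefore holds only for the measured genes.

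The nuclear receptors and bhlhe repressors, which feed back on the activators, included the list gene with the largest fall. The retinoid-related receptor gene rorb, known from retina and brain, fell to 1.89 FPKM in the mutant library, against 13.4 FPKM in the sibling library, with q = 0.00412 in the authors' deposited table. Of 8 measured genes of the list 0 were at least 2-fold higher and 1 was at least 2-fold lower. Over all measured genes the shares were 6.75% and 8.36%. The receptor nr1d2a had 1.62 FPKM in the mutant and 2.81 FPKM in the sibling, rorab had 3.87 and 5.78 FPKM in mutant and sibling, and the repressor bhlhe40 had 26.7 and 21.1 FPKM in mutant and sibling. None of these 3 is called there.

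At D-boxes, the elements through which light acts on cry1a and per2, factors of the PAR bZIP family activate and those of the nfil3 family repress. The PAR bZIP gene dbpb had 2.54 FPKM in the mutant library and 0.573 FPKM in the sibling library, with an implied standard error of 0.84. It passed the limit of 1 FPKM only through its mutant level. With 5 FPKM added, 0 genes of its list were at least 2-fold higher. Of the nfil3 family, nfil3-2 had 6.10 FPKM in the mutant and 12.1 FPKM in the sibling, nfil3-5 had 14.7 and 24.6 FPKM in mutant and sibling, and nfil3 had 7.07 and 10.8 FPKM in mutant and sibling. All 3 measured nfil3 genes stood below their sibling levels by somewhat less than 2-fold on the scale used, and nfil3-5 shares its locus with 3 other genes. The remaining 3 measured genes of the list, all of the PAR bZIP family, had log2 differences from -0.14 to 0.50, so that family lay on both sides of 0. Of the 7 measured genes of the list, 1 was at least 2-fold higher, beside 6.75% of all measured genes. At least 2-fold lower were 0, beside 8.36%, and none is called in the authors' deposited table.

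Of 12 measured genes for enzymes that modify or degrade clock proteins, 0 were at least 2-fold higher, beside 6.75% of all measured genes. At least 2-fold lower were 0, beside 8.36%. With 12 genes, such counts differ little from those shares. The kinase gene gsk3ab had 42.0 FPKM in the mutant library and 74.0 FPKM in the sibling library. The ubiquitin ligase gene fbxw11a had 8.37 FPKM in the mutant and 14.8 FPKM in the sibling, fbxw11b had 16.9 and 25.3 FPKM in mutant and sibling, and the deubiquitinase gene usp2a had 24.9 and 15.7 FPKM in mutant and sibling. A list of light-induced genes held DNA repair genes, to which cry5 is related in function, and also others such as lonrf1. Of its 5 measured genes, 0 were at least 2-fold higher or lower, beside the same shares of all measured genes. The glycosylase gene neil1 had 6.13 FPKM in the mutant and 9.44 FPKM in the sibling, and the damage sensor gene xpc had 5.88 and 8.47 FPKM in mutant and sibling. The damage sensor gene ddb2 had 4.34 FPKM in the mutant and 3.29 FPKM in the sibling, and lonrf1 had 3.23 and 4.27 FPKM in mutant and sibling.

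Of 4 measured cell cycle genes known to be under clock control, 1 was at least 2-fold higher, beside 6.75% of all measured genes. The cell cycle inhibitor gene cdkn1a, which p53 also controls, rose to 27.3 FPKM in the mutant library, against 1.83 FPKM in the sibling library, with q = 0.00453 in the authors' deposited table. The other 3 were close to their sibling levels. The kinase gene wee1 had 30.0 FPKM in the mutant and 32.2 FPKM in the sibling, ccnb1 had 276.1 and 230.6 FPKM in mutant and sibling, and cdk1 had 78.7 and 74.7 FPKM in mutant and sibling.

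**Figure D4:**
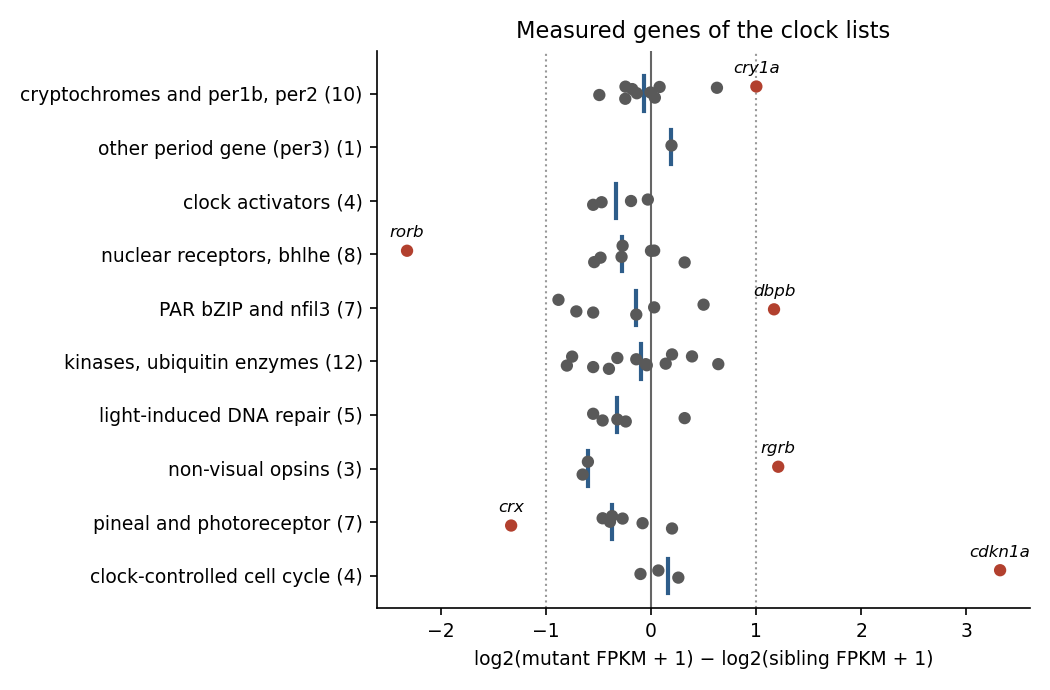
Log2 difference of each measured gene, 1 row per list with the number measured in brackets, with 1 FPKM added. Vertical bars are medians, dotted lines mark 2-fold, and genes at or beyond it are coloured and named. The 10 cryptochrome and period genes in the top row run from -0.49 to 1.00, and rorb and cdkn1a lie furthest from 0 at -2.32 and 3.32.

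Photoreceptive tissue was represented at low levels. Of 16 matched non-visual opsin genes 3 were measured, with 1 at least 2-fold higher and 0 lower. Over all measured genes the shares were 6.75% and 8.36%. The higher opsin gene, rgrb, had 15.1 FPKM in the mutant library and 5.95 FPKM in the sibling library. It shares its locus with 20 other genes, and its implied standard error was 3.84. The opsin gene opn5 had 0.841 FPKM in the mutant and 1.79 FPKM in the sibling, and rgra had 1.18 and 2.41 FPKM in mutant and sibling. On the deposited values opn5 and rgra stood at 0.47 and 0.49 times their sibling levels. Only the added 1 FPKM kept them under the size counted. Their implied standard errors were 1.23 for opn5 and 0.88 for rgra, and neither is called in the authors' deposited table. The gene opn5 passed the limit of 1 FPKM only through its sibling level. Opsin genes under the limit lay on both sides of their sibling levels. Of 14 matched pineal and photoreceptor genes 7 were measured, 1 above and 6 below its sibling level. All 14 genes of the list, with those under the limit, summed to 13.9 FPKM in the mutant and 20.1 FPKM in the sibling. Genes under the limit lay on both sides of their sibling levels. The photoreceptor and pineal factor crx had 1.03 FPKM in the mutant and 4.11 FPKM in the sibling. It was the only measured gene of that list at least 2-fold lower, with 0 higher. The authors' deposited table does not call crx, and with 5 FPKM added 0 genes of the list were at least 2-fold lower. Of the others, gngt1 had 1.86 and 2.94 FPKM in mutant and sibling, aanat1 had 0.744 and 1.28 FPKM in mutant and sibling, and asmt2, a melatonin synthesis gene, had 1.21 and 1.85 FPKM in mutant and sibling. The pineal enzyme gene aanat2, which makes the melatonin precursor, was under the limit of 1 FPKM, at 0.516 FPKM in the mutant and 0.156 FPKM in the sibling with an implied standard error of 1.59 in the authors' deposited table.

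Summed levels of tissue markers were also set beside these values. The 11 markers of neural and retinal progenitors summed to 333.7 FPKM in the mutant library and 696.0 FPKM in the sibling library, with 5 of 11 at least 2-fold lower, beside 8.36% of all measured genes, and 0 higher, beside 6.75%. The authors' deposited table calls 1 of the 11, rx2, and rx3, six3a and six3b had log2 differences of -0.09, -0.03 and 0.06. The pair of skeletal muscle markers summed to 9789 FPKM in the mutant and 6566 FPKM in the sibling, and the epidermis pair to 12514 and 8921 FPKM. The heart pair summed to 45.9 FPKM in the mutant and 9.42 FPKM in the sibling, most of it cmlc1, which that table calls. Lower in the mutant were the neuron pair, 105.6 against 230.4 FPKM, and the blood pair, 2200 against 3238 FPKM. So were the lens pair, 541.1 against 757.5 FPKM, and the endothelium pair, 6.18 against 7.74 FPKM. The neuron sum rested mostly on elavl3, 83.4 against 205.1 FPKM, with elavl4 at 22.1 against 25.3 FPKM. The endothelium markers went opposite ways, kdrl at 3.33 against 5.17 FPKM and cdh5 at 2.86 against 2.57 FPKM. The part of these tissues in the level of cry1a or of any other gene above was not tested.

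The deposited variant table, made from the RNA for linkage mapping, is a second readout of these genes. It lists 7514 sites, all as homozygous for the changed base, and 3 of them lie in 3 of the 10 genes. The share of all genes that hold a listed site was not counted, so 3 of 10 cannot be read as many or few. Of the 3 sites, the one with the most reads is in cry-dash, C20812905A on chromosome 24 of Zv9. It is counted along the genome, with 24 reads and a quality score of 222. It is annotated as changing cysteine to phenylalanine, C94F in one transcript and C93F in another, counted from the start of the protein, where the codon tTt takes the place of tGt. Only 8.38% of all sites had more reads. The per1b site C52291529T had 2 reads and leaves codon 505 an arginine codon, cgT in place of cgC. The cry3 site A4287356G had 4 reads and lies in exon 11 of a transcript annotated as non-coding. The sources used here do not say in which library these sites were called, so none can be tied to mutant or sibling.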

How the data were processed

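Stranded libraries of polyadenylated RNA, from 1 µg of total RNA, were read from both ends for 50 nucleotides, per the labels' protocols. Zv9, TopHat2 2.1.1, Cufflinks 2.2.1, Cuffdiff and CASAVA 1.8 are named, without roles, in the submitters' processing notes. The authors deposited 1 FPKM value per locus and library, which was not rescaled. The authors' deposited log2 changes, p-values and q-values compare 1 library with 1 library. At 100% of the 19583 loci of status OK with a finite change, the deposited p-value lay within 0.001 of the normal tail area of the test statistic, a score with the sign opposite to the change. The implied standard error is therefore the change divided by the statistic. Variant quality scores and coverage, a count of reads per site, were used as deposited. Per the file headers, SnpEff 3.1k annotated them.

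Loci of status FAIL and means below 1 FPKM were left out of counts. Relative depth was the commonest ratio among 4528 loci below 1 FPKM in both libraries, where 7.73% fell within 0.02 of it on the log2 scale. Counts and depth were tested on simulated data with planted answers, for the counts large changes without noise (Python 3.11.15, numpy 2.4.6, pandas 2.3.3). That checks the code, and not how the size rule acts at low levels. The members and lists were chosen with earlier results of these data known. All 10 members are named, and up to 4 measured genes per list with the largest difference. Beside these stand supt16h, per1a, per3, tissue markers, genes at shared loci, and 3 list genes under the limit (clocka, npas2 and aanat2) named after their values were seen. RefSeq synonyms matched 10 list genes. Promoters and proteins were not analysed here.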

Additional observations from a re-analysis of the deposited data

How the results depend on the processing

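The results were recomputed under 9 alternative settings, and without replicates no analysis with a library left out was possible. The count of cryptochrome and period genes at least 2-fold higher, 1 as reported for cry1a, was 0 with 5 FPKM added, 0 with both libraries scaled to the same FPKM sum and 0 with differences centred on genes of at least 10 FPKM, where cry1a had log2 differences of 0.66, 0.92 and 0.98. At a size of 1.5-fold it was 2, cry1a and cry-dash. The count at least 2-fold lower was 0 in each setting tried. The median of all 10 genes ran from -0.14 to -0.03. Over the members with a mean of at least 5 FPKM it was -0.12, and over the 8 alone at their loci 0.02. Each of the 72 recomputed differences moved by less than that gene's implied standard error, and only per1b turned sign. Part of that outcome was fixed in advance. Settings that change only the filter on the mean, or keep genes alone at their locus, leave each difference as it was. For cry2a and cry2b, the errors of 8.17 and 5.80 were too wide for these settings to exceed. The clock lists gave 1 gene higher and 1 lower with 5 FPKM added, 1 lower with a mean of at least 5 FPKM, and 8 lower at 1.5-fold. Over all measured genes, 617 were higher and 796 lower with 5 FPKM added, 828 higher with a mean of at least 5 FPKM, and 3317 higher and 3799 lower at 1.5-fold. Genes alone at their locus and no FPKM added were settings chosen after seeing the data. The promoter and protein comparisons were not run. Most of these genes lie at 2 to 10 FPKM, where the deposited comparison called no change below 2.25 on the log2 scale at means up to 8.30 FPKM.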
